A study of Ovis aries with 4 samples.

Results

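DRD2, ADORA2A and GPR6 are 3 G protein-coupled receptor genes known from the striatal neurons of the indirect pathway. They were found by symbol in the deposited gene lists, and all 3 were present among the 26478 genes counted. Their identifiers were ENSOARG00020021004 for DRD2, ENSOARG00020025698 for ADORA2A and ENSOARG00020006994 for GPR6. The samples were 4 droplet-based RNA sequencing libraries from frozen striatum of sheep (Ovis aries) aged 5 years, with no treatment or genetic change named in the labels. Whole cells were released with papain in 2 libraries, and nuclei were released by homogenising tissue in a detergent buffer and cleaned on an iodixanol gradient in the other 2. Each library pooled 2 animals, with sheep 1 and 2 in replicate 1 and sheep 3 and 4 in replicate 2 of both kinds per the titles. The question of the series was how whole cells and nuclei from frozen tissue compare as input.

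The striatum sends its output through medium spiny neurons, which are GABA-releasing cells of 2 main kinds. Neurons of the direct pathway carry the dopamine receptor D1 and the peptide genes TAC1 and PDYN, and neurons of the indirect pathway carry the dopamine receptor D2 and the peptide gene PENK. DRD2 encodes the D2 receptor, which couples to Gi and Go proteins and lowers cAMP when dopamine binds. ADORA2A encodes an adenosine receptor that couples to Golf in striatum and raises cAMP, so that adenosine and dopamine act in opposite directions in the same cell. GPR6 encodes an orphan receptor that raises cAMP with no added ligand. DRD2 is also known from cholinergic interneurons and from the terminals of dopamine neurons.

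The nuclei libraries held 70473292 and 51102420 unique molecular identifiers (UMIs, each a captured RNA molecule) in 8815 and 8723 barcodes. The whole cells libraries held 1115058 and 19241918 UMIs in 2162 and 32500 barcodes, and 88.7% and 86.9% of these UMIs were mitochondrial. Without mitochondrial genes the totals were 69924470 and 50705635 UMIs in nuclei and 125974 and 2512837 in whole cells. Library levels are therefore given as CPM (the counts-per-million scale, here of a library's non-mitochondrial UMIs), and levels within nuclei as CPM of all UMIs of the nuclei summed. Any pair of libraries shared 2 to 87 barcodes. No whole cells barcode passed the quality limits used for nuclei, so cell types were examined in nuclei only, in 8310 and 8388 usable nuclei. With 2 pooled libraries of each kind, p-values measure only the spread between these libraries.

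DRD2 was counted in both nuclei libraries and in whole cells replicate 2. There were 825 DRD2 UMIs in 441 barcodes of nuclei replicate 1, 773 in 410 barcodes of nuclei replicate 2, none in whole cells replicate 1 and 28 in 28 barcodes of whole cells replicate 2. The DRD2 levels were 11.8 (95% exact Poisson interval 11.01 to 12.6), 15.2 (14.2 to 16.4) and 11.1 (7.40 to 16.1) CPM in the 3 libraries with counts. The whole cells value lay below both nuclei values, but its interval covered both. Intervals here and below cover counting error only.

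ADORA2A had 152 UMIs in 131 barcodes of nuclei replicate 1, 165 in 137 barcodes of nuclei replicate 2, none in whole cells replicate 1 and 44 in 43 barcodes of whole cells replicate 2. Its levels were 2.17 (1.84 to 2.55) and 3.25 (2.78 to 3.79) CPM in nuclei and 17.5 (12.7 to 23.5) in whole cells replicate 2. ADORA2A was thus higher in whole cells replicate 2 than in either nuclei library, with intervals that did not overlap.

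GPR6 had 46 UMIs in 43 barcodes and 14 UMIs in 13 barcodes of the nuclei libraries, and 2 UMIs in 2 barcodes of whole cells replicate 2. The GPR6 levels were 0.658 (0.482 to 0.877) and 0.276 (0.151 to 0.463) CPM in nuclei and 0.796 (0.0964 to 2.88) in whole cells replicate 2. The nuclei libraries differed from each other beyond counting error, and the 2 whole cells UMIs left a range that held both. Whole cells replicate 1 had none of the 3 receptors, and 3 UMIs there would stand for 23.8 CPM, above every level measured elsewhere. A lack of the receptors in that library was therefore not detectable at its depth.

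**Figure D1:**
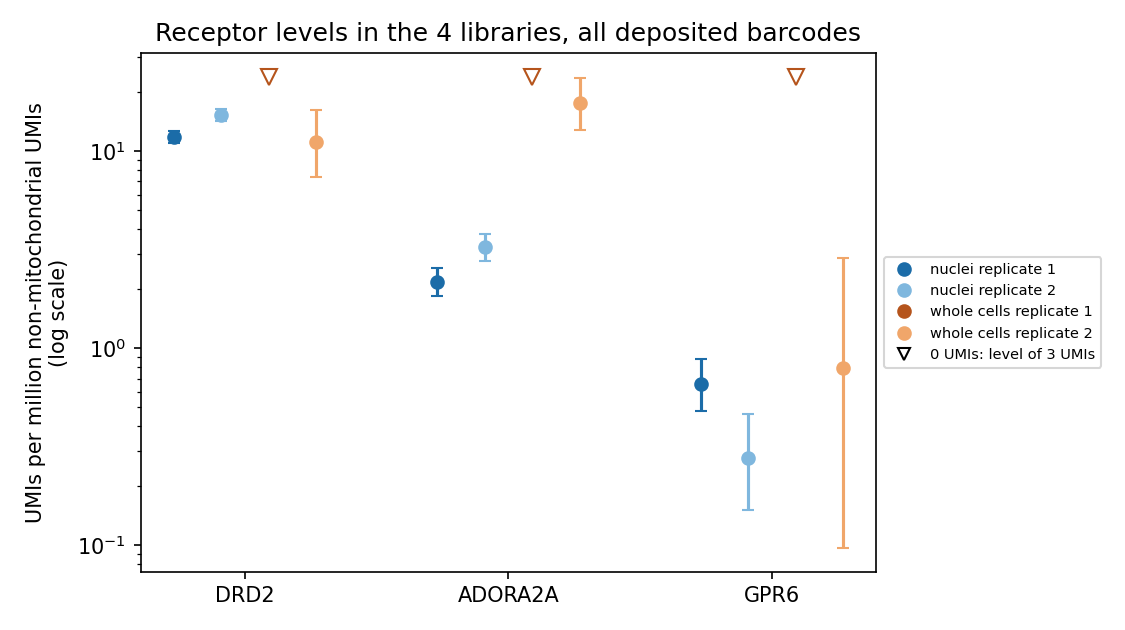
Levels of DRD2, ADORA2A and GPR6 in CPM of non-mitochondrial UMIs (log scale) in the 4 libraries, with 95% exact Poisson intervals; open triangles mark 0 UMIs and stand at the level of 3 UMIs. ADORA2A in whole cells replicate 2 sits at 17.5, above 2.17 and 3.25 in nuclei, while DRD2 lies between 11.1 and 15.2 in all 3 libraries with counts.

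Within the pool of sheep 3 and 4, DRD2 was 1.37-fold higher in nuclei than in whole cells (0.939 to 2.07), and ADORA2A was 5.38-fold higher in whole cells (3.77 to 7.54). The ratio of nuclei over whole cells for GPR6 was 0.347 (0.0797 to 3.14). Against all UMIs, mitochondrial ones included, the ratios of nuclei over whole cells in that pool were 10.4 for DRD2, 1.41 for ADORA2A and 2.64 for GPR6. The direction for ADORA2A thus turned with the choice of total. A measure that needs no total is the number of ADORA2A UMIs per 100 DRD2 UMIs, which was 18.4 (15.4 to 21.9) and 21.3 (17.9 to 25.3) in nuclei and 157 (95.7 to 262) in whole cells replicate 2. The balance of these 2 receptors differed between whole cells replicate 2 and both nuclei libraries beyond counting error.

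Summed counts of all 4 libraries were tested with edgeR's quasi-likelihood test with Benjamini-Hochberg adjustment over 15781 genes. Of these, 29.8% were called for nuclei, meaning higher there, and 22.4% for whole cells (52.2% in either direction), and the median log2 fold change of nuclei over whole cells was 0.61. For ADORA2A the edgeR estimate was -2.60 on that scale (SE 0.58, adjusted p = 0.000361), a call for whole cells. For DRD2 it was 0.28 (SE 0.53, edgeR adjusted p = 0.674), and GPR6 did not pass the filter on low counts. With library size as the only scaling, which lifts the median of all genes to 3.66, ADORA2A turned to 0.57 (adjusted p = 0.452) and DRD2 to 3.40 (adjusted p = 0.000102) in the same edgeR test. The ADORA2A call was also lost with DESeq2 (-2.17, adjusted p = 0.0701) and among barcodes with at least 200 genes (-1.26, edgeR adjusted p = 0.398). Without whole cells replicate 2, no ADORA2A count remained in whole cells. In such sums, fewer cells of a type and less RNA per cell cannot be told apart, and the counting program's version changed with the kind of library.

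The whole cells barcodes that held a receptor were shallow and mostly mitochondrial. The 28 DRD2 barcodes of whole cells replicate 2 had a median of 593 UMIs and 80.5 genes with 87.8% mitochondrial UMIs, and the 43 ADORA2A barcodes had 569 UMIs, 76 genes and 87.9%. Only 2 and 3 of them had at least 200 genes. None held a second receptor, so co-detection was not measurable in whole cells.

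The genes around these receptors showed how other parts of the same signalling chain were captured. Of 96 listed genes 88 were found by name, and 82 were tested. Of these, edgeR called 36 for nuclei and 21 for whole cells, with a median log2 fold change of 0.85. Over all genes tested the shares were 29.8% and 22.4%, and the median was 0.61. Without whole cells replicate 2 the median of the lists was 2.53 and that of all genes 4.37. With library size as the only scaling, 68 of the 82 were called for nuclei and none for whole cells. Over all genes that fit called 12537 of 15781 for nuclei and 498 for whole cells. Of the genes named below as lower in nuclei, MAOA, GPR12, CHRM4, PPP1R1B, PENK, SP9 and TAC1 turned above 0 in it. With the animal pool as a block the counts of listed genes were 26 and 12, against 3225 and 2246 over all genes. DRD1, ADORA1, ADORA3, GPR52, GRM5, GNAS, ENTPD1 and GPRASP1 were not found by name and were not analysed here.

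Among genes that make, store or clear the ligands, 10 were tested, with 3 calls for nuclei and 2 for whole cells (median 0.85). Over all genes 29.8% and 22.4% were called (median 0.61), so these counts do not set the list apart. ADK, the adenosine kinase that clears adenosine, had a log2 fold change of 4.36. MAOA, an enzyme of dopamine breakdown, had -1.28. Of 3 other receptors of the families, DRD3 (the dopamine receptor D3) was higher in nuclei at 2.38 and GPR12, a relative of GPR6, was lower at -2.51. Of 4 partner receptors tested, 2 were lower in nuclei (median -1.76), with CHRM4 (a muscarinic receptor) at -3.06. The 2 supply genes lower in nuclei became 0 without nuclei replicate 2 and 1 when each of the other libraries was left out. The 2 partner receptors became 1 without either nuclei library and 0 without whole cells replicate 2, and their median became -0.71 without nuclei replicate 1, -0.55 without nuclei replicate 2 and 0.34 without whole cells replicate 2. The DRD3 call was lost without nuclei replicate 1, and the GPR12 call without whole cells replicate 2, while without nuclei replicate 2 GPR12 did not pass the filter on low counts. With the pool block the GPR12 call was lost (edgeR adjusted p = 0.0634), and the supply genes lower in nuclei became 1, with MAOA no longer called (-0.73, edgeR adjusted p = 0.508). Among barcodes with at least 200 genes MAOA turned to 1.62 (edgeR adjusted p = 0.0539), and neither DRD3 nor GPR12 was called. DESeq2 called no supply gene lower (MAOA -0.94, adjusted p = 0.276) and gave GPR12 and CHRM4 no adjusted p.

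Downstream, 19 of 26 cAMP and channel effectors were higher in nuclei and 2 lower (median 2.37). The shares over all genes tested, for this and the next lists, were 29.8% higher and 22.4% lower (median 0.61). PDE10A, the main cAMP phosphodiesterase of spiny neurons, had 3.66 and ADCY5, their main adenylyl cyclase, 3.24. PPP1R1B, the phosphatase inhibitor DARPP-32, had -2.64. Of 16 G protein and RGS genes, 6 were higher and 3 lower (median 0.78), with RGS7 at 5.60 and GNAZ, a Gi family subunit, at -3.79. Without whole cells replicate 2 the median was 4.70 for the effectors and 1.99 for G protein and RGS genes, against 4.37 for all genes. Of 14 genes for desensitisation and scaffolding, 4 were higher and 6 lower (median -1.18), with PPP1R9B (spinophilin) at -3.85 and GRK2, a receptor kinase, at -3.46. The 4 higher became 0 without nuclei replicate 1, 1 without nuclei replicate 2 and 1 with the pool block. The 6 lower became 4 with the pool block and 3 without whole cells replicate 2 or among barcodes with at least 200 genes. The 3 G protein and RGS genes lower in nuclei became 1 without either nuclei library, 5 without whole cells replicate 1, 0 without whole cells replicate 2 and 1 with the pool block or DESeq2.

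The pathway markers moved in both directions, where 29.8% of all genes were called for nuclei and 22.4% for whole cells. Of 3 indirect pathway markers, GRIK3, a kainate receptor subunit, was higher in nuclei at 3.97, but it was also found in 65.2% and 60.6% of oligodendrocyte-like nuclei, so its library level is not one of indirect pathway neurons alone. In the same fit PENK had -2.97 and SP9, a transcription factor, -1.47 (median -1.47). Of 7 direct pathway markers, 2 were higher in nuclei and 4 lower (median -1.37), with PDYN at -3.48 and TAC1 at -1.37. EBF1, a transcription factor of direct pathway neurons, had 3832 and 3196 UMIs in nuclei and none in either whole cells library. Without whole cells replicate 2 no pathway marker of either list was called lower in nuclei, and the fitted medians turned to 2.06 for indirect and 7.11 for direct markers, values that depend on the prior count. Without either nuclei library the lower calls became 1 indirect and 2 direct markers, and the direct markers called higher became 1, with 6 and 5 direct markers tested. Among barcodes with at least 200 genes no direct marker was called lower and the list's median turned to 1.74, and 1 indirect marker was called lower. With the pool block 1 direct marker was higher and 2 lower, and DESeq2 called 1 direct marker lower. The indirect markers called lower became 1 with either. The TAC1 and SP9 calls were lost in each of these 3 fits.

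Nuclei were clustered without the 3 receptors, and clusters were named from marker lists. Medium spiny neuron-like nuclei, called spiny-like below, numbered 1257 and 1335. All 14 listed spiny markers had counts in them, but so had all 8 oligodendrocyte markers, so mere counts do not bear on the name. They held 93.7% and 89.6% of the DRD2 UMIs of usable nuclei, in 15.1% and 15.9% of the nuclei, and 66.1% and 57.7% of all UMIs. DRD2 was detected in 385 of 1257 spiny-like nuclei of replicate 1 (30.6%, exact binomial 28.1 to 33.3) and 353 of 1335 of replicate 2 (26.4%, 24.1 to 28.9). ADORA2A was detected in 114 (9.07%, 7.54 to 10.8) and 126 (9.44%, 7.92 to 11.1). GPR6 was detected in 37 (2.94%, 2.08 to 4.03) and 12 (0.899%, 0.465 to 1.56). The shares of DRD2 and ADORA2A had overlapping intervals in the 2 libraries, and that of GPR6 did not.

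Oligodendrocyte-like nuclei, which should lack these receptors, were taken as the background. Whether their receptor UMIs came from free RNA, doublets or misnamed nuclei was not tested. DRD2 was found in 0.0795% and 0.206% of them, ADORA2A in 0.0795% and 0.103%, and GPR6 in 0.053% and in 0 of 3878, where 3 counts would give 0.0774%. Their median depth was 2201 and 1593 UMIs, against 31649 and 17694 in spiny-like nuclei. When every spiny-like nucleus was thinned to 10000 UMIs, the shares were 13.9% and 18.2% for DRD2, 2.79% and 5.17% for ADORA2A, and 1.07% and 0.535% for GPR6. At equal depth the shares of DRD2 and ADORA2A were thus higher in replicate 2 and that of GPR6 in replicate 1, on 13 and 6 GPR6-positive nuclei. The thinned set left out 37 and 213 shallower nuclei. Oligodendrocyte-like nuclei could be compared at 2000 UMIs, where DRD2 was in 3.26% (2.35 to 4.40) and 4.38% (3.34 to 5.62) of spiny-like nuclei against 0.0916% (0.0111 to 0.330) and 0.228% (0.0471 to 0.666) of oligodendrocyte-like ones. At that depth ADORA2A was in 0.478% (0.176 to 1.04) and 0.981% (0.523 to 1.67) against 0.0458% (0.00116 to 0.255) and 0.0762% (0.00193 to 0.424), with intervals that overlapped in replicate 1. GPR6 was in 3 and 1 spiny-like nuclei against 1 and 0, which this depth cannot tell from background. At 1000 UMIs ADORA2A was in 0 of 1257 and 6 of 1335 spiny-like nuclei against 2 of 3608 and 2 of 3283, so its excess in replicate 1 was not detectable there.

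DRD2 was the only receptor with several UMIs in many nuclei. Of DRD2-positive spiny-like nuclei, 50.1% in each library had 2 or more DRD2 UMIs, and the most in any usable nucleus was 9 and 10. The corresponding shares were 14.9% and 16.7% for ADORA2A, with at most 4 and 5 UMIs, and 5.41% and 8.33% for GPR6, with at most 3 and 2. A nucleus called negative below is one without a UMI of the gene, which does not show that the gene was silent.

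Spiny-like nuclei fell into clusters with different receptor content. Cluster 12 held 612 and 154 nuclei, and had PENK among its markers. It held 90.6% of DRD2, 85.5% of ADORA2A and 80.0% of GPR6 UMIs of usable nuclei in replicate 1, and 43.5%, 44.8% and 46.2% in replicate 2. DRD2 was detected in 59.5% (55.5 to 63.4) and 80.5% (73.4 to 86.5) of its nuclei, at 33.8 and 56.7 CPM. ADORA2A was detected in 16.8% and 33.8%, at 5.82 and 12.5 CPM. GPR6 was detected in 5.39% and 3.25%, at 1.69 and 1.01 CPM. The cluster's replicate 2 nuclei were deeper, at a median of 39236.5 UMIs against 31877.

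Cluster 6, with EBF1 among its leading genes and TAC1 among its markers, held 562 and 147 nuclei with little of any receptor. DRD2 was found in 3.02% and 3.40% of these nuclei at 0.998 and 1.04 CPM, ADORA2A in 1.78% and none, and GPR6 in 0.356% and 0.680%. Cluster 9, led by ALK, held 73 and 85 nuclei with DRD2 in 4.11% and 4.71%, ADORA2A in 1 nucleus and none, and GPR6 in 1 nucleus and none. Median depths of clusters 6 and 9 were 32217.5 and 26544 UMIs in replicate 1 and 38238 and 17340 in replicate 2. Their DRD2 shares lay far below the intervals of cluster 12 in both libraries.

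Cluster 2 belonged almost wholly to 1 library, with 10 nuclei of replicate 1 and 949 of replicate 2. In replicate 2, DRD2 was found in 23.2% of its nuclei at 21.8 CPM, ADORA2A in 7.80% at 4.94 and GPR6 in 0.632% at 0.380. It held 44.6% of the DRD2, 47.3% of the ADORA2A and 46.2% of the GPR6 UMIs of replicate 2. Its DRD2 and ADORA2A values lay between those of clusters 12 and 6, while its GPR6 share was below the 0.680% of cluster 6, where that share is 1 nucleus. EBF1 was found in 47.0% and PENK in 23.4% of its nuclei, so it held markers of both pathways. Spiny-like clusters thus differed in make-up between the libraries, and receptor shares by cluster are not compared between them.

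When the 8% of nuclei with the highest doublet scores were removed from both libraries, an alternative chosen after seeing the data, spiny-like nuclei split by pathway in both libraries. The cluster with PENK held 607 and 505 nuclei, with DRD2 in 58.8% and 57.8% at 34.1 and 53.4 CPM. Its ADORA2A levels were 5.84 and 12.3 and its GPR6 levels 1.72 and 0.786 CPM. The cluster with EBF1 and TAC1 held 547 and 632 nuclei, with DRD2 at 1.01 and 2.94, ADORA2A at 0.506 and 0 and GPR6 at 0.101 and 0.0718 CPM. For each of the 3 genes, both library values of the first cluster lay above both of the second, as a description of clusters made from the same nuclei.

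**Figure D2:**
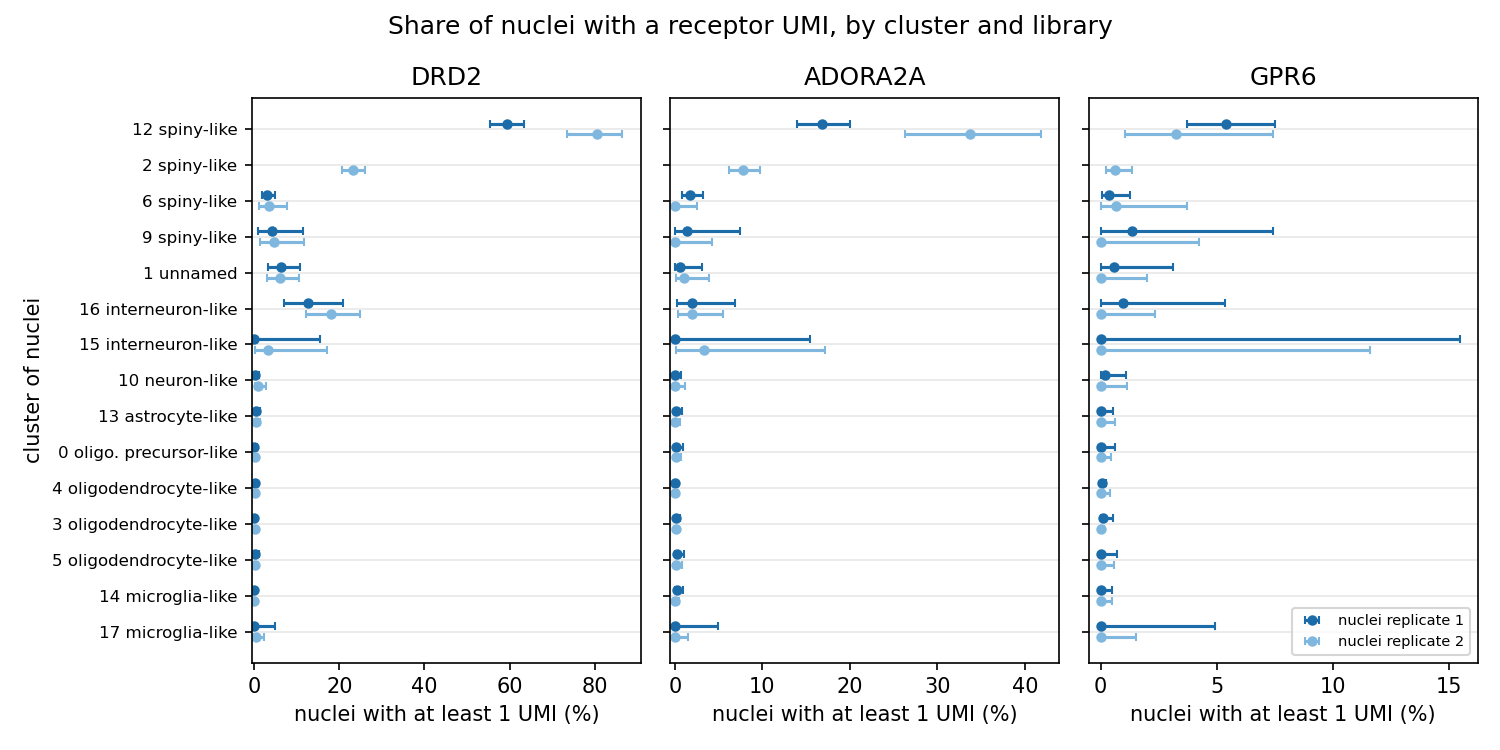
Share of nuclei with at least 1 UMI of DRD2, ADORA2A or GPR6 (percent, with 95% exact binomial intervals) in 15 clusters, by nuclei library; a library with under 20 nuclei in a cluster is not drawn. Cluster 12 stands highest for all 3 receptors, with DRD2 in 59.5% and 80.5% of its nuclei, and the interneuron-like cluster 16 has DRD2 in 12.7% and 17.9% with little ADORA2A.

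The receptors were found together in single nuclei. Among spiny-like nuclei, DRD2 and ADORA2A shared 73 nuclei in replicate 1, where the product of their shares gives 34.9, and 96 in replicate 2, where it gives 33.3. The odds ratios were 4.71 and 11.7. Here and below, the product is taken over all spiny-like nuclei, whose clusters differ in receptor content. A product above or below the observed count can thus reflect the mix of clusters, and pairs within a cluster are not given here. Of DRD2-positive nuclei, 19.0% (15.2 to 23.2) and 27.2% (22.6 to 32.2) had an ADORA2A UMI, against 4.70% (3.39 to 6.32) and 3.05% (2.07 to 4.33) of DRD2-negative nuclei. Read the other way, 64.0% and 76.2% of ADORA2A-positive nuclei had DRD2, against 27.3% and 21.3% of the rest.

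DRD2 and GPR6 shared 20 nuclei against a product of 11.3 in replicate 1, and 6 against 3.17 in replicate 2, with odds ratios of 2.74 and 2.81. DRD2 was found in 54.1% and 50.0% of GPR6-positive nuclei, against 29.9% and 26.2% of the rest. ADORA2A and GPR6 shared 6 nuclei against 3.36 and 4 against 1.13, with odds ratios of 2.12 and 5.19. All 3 receptors were found in 3 and 4 nuclei, where the product of the 3 shares gives 1.03 and 0.299. The pairs with GPR6 rest on few nuclei, and no test was made across nuclei because those of 1 library share their source.

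**Figure D3:**
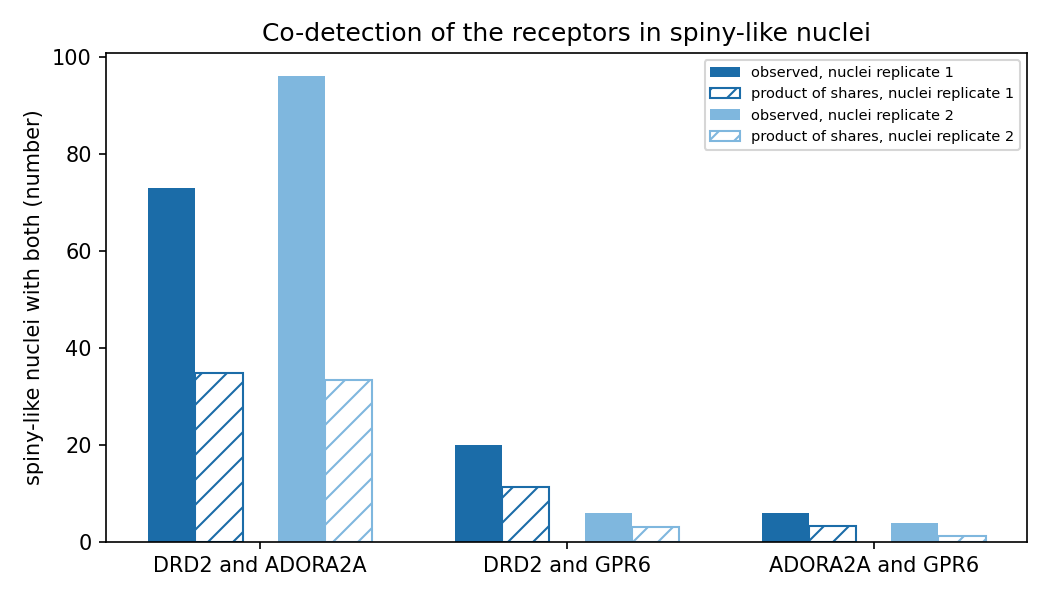
Number of spiny-like nuclei with a UMI of both genes of a pair (filled bars) beside the number that the product of the 2 shares gives (hatched bars), in each nuclei library. DRD2 and ADORA2A are found together in 73 and 96 nuclei against 34.9 and 33.3 from the product.

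Depth moves with co-detection, so the pairs were also counted within depth strata. Among nuclei below the median depth of their library the odds ratio of DRD2 with ADORA2A was 3.19 and 6.42, and among those at or above it 5.44 and 16.3. In nuclei thinned to 10000 UMIs, 7 nuclei of replicate 1 had both against a product of 4.74 (odds ratio 1.71), and 23 of replicate 2 against 10.5 (3.22). With the highest doublet scores removed the odds ratios were 4.82 and 12.9. Co-detection exceeded the product of shares in each of these sets, by the least in the thinned nuclei of replicate 1.

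Most receptor-positive nuclei carried DRD2 alone. In replicate 1, 295 spiny-like nuclei had DRD2 only, 38 ADORA2A only, 14 GPR6 only, 70 DRD2 with ADORA2A, 17 DRD2 with GPR6 and 3 ADORA2A with GPR6, and 817 had none. In replicate 2 these counts were 255, 30, 6, 92, 2, 0 and 946. Outside spiny-like nuclei, 49 and 65 of 7053 nuclei in each library had any receptor, and 1 and 2 of them had more than 1.

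Shares of nuclei with a pathway marker differed beside the receptors, given here as a description. EBF1 was detected in 5.45% and 11.3% of DRD2-positive spiny-like nuclei, against 53.1% and 55.0% of DRD2-negative ones. Beside ADORA2A it was found in 6.14% and 3.17%, against 41.7% and 47.6%, and beside GPR6 in 3 of 37 and 1 of 12 nuclei. EBF1 was in 0.318% and 0.361% of oligodendrocyte-like nuclei. PENK was found in 54.8% and 46.5% of DRD2-positive nuclei, against 22.2% and 14.3% of negative ones, with 2.44% and 1.37% in oligodendrocyte-like nuclei.

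TAC1 was found in 28.3% and 29.2% of DRD2-positive nuclei, against 73.9% and 69.0% of DRD2-negative ones. It was also in 16.2% and 9.75% of the much shallower oligodendrocyte-like nuclei, and the source of TAC1 UMIs beside DRD2 was not tested. Of the sparser direct pathway genes, PDYN was found with DRD2 in 1 of 30 and 5 of 57 PDYN-positive nuclei, ISL1 in 1 of 18 and 0 of 31, and CHRM4 in 0 of 20 and 0 of 22. DRD2 stood in 30.6% and 26.4% of all spiny-like nuclei, so these genes met DRD2 in fewer nuclei than the product of shares in both libraries.

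The transcriptome around DRD2 was compared by summing spiny-like nuclei with and without a DRD2 UMI in each library, 385 against 872 and 353 against 982 nuclei. Positive nuclei were deeper, with medians of 35535 against 29631 and 21532 against 16357.5 UMIs. With the library as a block, edgeR called 491 of 14220 genes higher in DRD2-positive nuclei (3.45%) and 600 lower (4.22%), or 7.67% in either direction. Without the block the same test called 0 higher and 2 lower (ERBB4 and FOXP2), with 240 genes at an unadjusted p under 0.05. The calls thus rest on ratios within each of 2 libraries. Sums over nuclei matched for depth gave 189 higher and 242 lower, and DESeq2 179 and 144.

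ADORA2A was not used to split the nuclei by DRD2, but its difference between the sides restates their co-detection. Its level was 6.13 against 1.52 CPM in replicate 1 and 12.2 against 1.78 in replicate 2, with positive nuclei higher in both. The log2 fold change was 2.42 (SE 0.21, edgeR adjusted p = 5.71e-19), and in depth-matched nuclei it was 2.53 (adjusted p = 6.56e-05), while without the library block the adjusted p was 0.642. GPR6 stood at 1.41 against 0.656 and 0.730 against 0.305 CPM in DRD2-positive and DRD2-negative nuclei. Its log2 fold change of 1.17 (SE 0.45) did not pass the edgeR test (adjusted p = 0.101).

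Among called genes with an average log2 CPM of at least 4, which leaves out ADORA2A and SP9 among others, the 10 with the largest rise beside DRD2 were OPRD1, GRIK3, PENK, HS3ST4, NTS, IPCEF1, PTPRM, ADRA1A, CSGALNACT1 and EDIL3, with log2 fold changes from 1.96 down to 1.07. OPRD1 encodes the delta opioid receptor, a receptor for the enkephalins made from PENK. OPRD1 had 42.0 against 12.4 and 60.8 against 14.04 CPM. PENK had 42.6 against 15.8 and 38.4 against 11.9, a log2 fold change of 1.57 (SE 0.10). NTS, the neurotensin precursor, had 69.5 against 29.2 and 42.9 against 13.4. ADRA1A, an adrenergic receptor, rose by 1.19.

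At the same minimum level, which leaves out PDYN, CHRM4, ISL1 and SLC35D3 among others, the 10 genes with the largest fall were EBF1, FOXP2, TAC1, ADARB2, ERBB4, PPM1E, NRG3, PCDH15, ADCY2 and GNG12, with log2 fold changes from -3.62 to -1.89. EBF1 had 6.33 against 114 and 15.5 against 145 CPM. FOXP2, a forkhead transcription factor, had 14.8 against 206 and 22.0 against 226. ERBB4, the neuregulin receptor, had 140 against 1034 and 150 against 1306, and its ligand gene NRG3 fell by 2.19 on the log2 scale. ADCY2, an adenylyl cyclase, had 5.66 against 20.3 and 9.07 against 38.6. In the DRD2-poor cluster 6 of replicate 1 ADCY2 stood at only 3.14 CPM, so there its fall was not one against that cluster. DRD2-negative nuclei come from several clusters, cluster 9 among them, and no split was made within a cluster. All 20 genes kept their direction in every alternative run and their call in each but the fit without the block, which called 2.

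The signalling lists held these marker genes and the signalling genes. All 3 indirect pathway markers tested rose (median 1.57) and all 7 direct pathway markers fell (median -3.14), against a median of -0.02 over all genes. SP9 rose by 1.30, PDYN fell by 2.90 and SFXN1 fell by 0.30 on the log2 scale, and CHRM4 had no UMI in DRD2-positive nuclei of either library. None of 10 ligand supply genes and not DRD3 passed the test. Of 4 partner receptors, HTR2A, a serotonin receptor, rose by 0.81 and CHRM4 fell.

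Of 16 G protein and RGS genes, 7 rose and 1 fell beside DRD2 (median 0.14), where 3.45% of all genes rose and 4.22% fell. Values were refitted with other settings for the receptors, named genes and listed genes. A call was lost in 83 of these values and gained in 8, the fit without the block included. GNAO1, the Go subunit that D2 receptors use, rose by 0.26, GNAL, the Golf subunit that the ADORA2A receptor uses, by 0.17, RGS9 by 0.26 and RGS14 by 0.32, while GNAI1 fell by 0.44. Of 26 cAMP and channel effectors, 7 rose and 4 fell (median 0.08). ADCY5 and PDE10A each rose by 0.25 and PDE2A, another phosphodiesterase, by 0.31. KCNJ6 fell by 1.14 and KCNJ3 by 0.43, both subunits of the inward rectifier channels that Gi and Go proteins open. In cluster 9 KCNJ3 stood at 901 and 850 CPM, against 196 and 188 in cluster 12 and 213 and 202 in cluster 6. KCNJ6 had 45.5 and 42.0 CPM in cluster 9, against 1.97 and 1.35 in cluster 12 and 1.65 and 4.16 in cluster 6. In replicate 1 KCNJ6 was thus not lower in cluster 12 than in cluster 6. The part of cluster 9 in these falls was not tested. Of 14 desensitisation genes, NCS1, a calcium sensor that binds D2 receptors, rose by 0.32 and GRK3, a receptor kinase, fell by 0.96.

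ADORA2A-positive spiny-like nuclei numbered 114 and 126, against 1143 and 1209 without it. With the library as a block, edgeR called 248 of 13768 genes higher in ADORA2A-positive nuclei (1.8%) and 316 lower (2.3%), or 4.1% in either direction. Without the block it called 0 in either direction, with 229 at an unadjusted p under 0.05. DESeq2 called 87 higher and 60 lower, and depth-matched nuclei gave 114 and 161. Among genes with an average log2 CPM of at least 4, the largest rise was that of DRD2, with 39.6 against 14.3 and 62.4 against 18.0 CPM. Its log2 fold change was 1.67 (SE 0.12, edgeR adjusted p = 1.497e-38), and 1.52 in depth-matched nuclei (adjusted p = 3.44e-09). In both splits such p-values compare parts of the same libraries and do not measure the spread between animals. This rise also restates the co-detection of DRD2 and ADORA2A counted above.

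At that minimum level, the other 9 leading rises beside ADORA2A were OPRD1, GRIK3, PTPRM, HS3ST4, CSGALNACT1, UNC5D, ADRA1A, PENK and IPCEF1, with log2 fold changes from 1.33 to 0.76. The leading falls were FOXP2, EBF1, ADARB2, ERBB4, TAC1, PPM1E, PCDH15, NRG3, TOX2 and ADCY2, from -3.72 to -1.57. EBF1 had 13.7 against 85.0 and 1.08 against 117 CPM, and FOXP2 21.6 against 155 and 1.34 against 182. Both were lower beside ADORA2A in replicate 2 than in replicate 1. With DESeq2, 15 of the 20 genes were called, and in depth-matched nuclei 19. The splits by DRD2 and by ADORA2A share most of their nuclei, so their lists are not independent of each other.

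Among the lists, all 3 indirect pathway markers tested rose beside ADORA2A (median 0.84) and all 5 direct pathway markers tested fell (median -2.79). Of 16 G protein and RGS genes 5 rose and 1 fell, and of 26 cAMP and channel effectors 5 rose and 3 fell. Over all genes 1.8% rose and 2.3% fell. Among values refitted for receptors, named genes and listed genes, a call was lost in 84 and gained in 5, the fit without the block included. HTR2A rose by 0.64. GNAL rose by 0.24 and ADCY5 by 0.30. GPR6 had 1.28 against 0.869 and 1.34 against 0.313 CPM, with a log2 fold change of 1.12 that did not pass the edgeR test (adjusted p = 0.443).

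**Figure D4:**
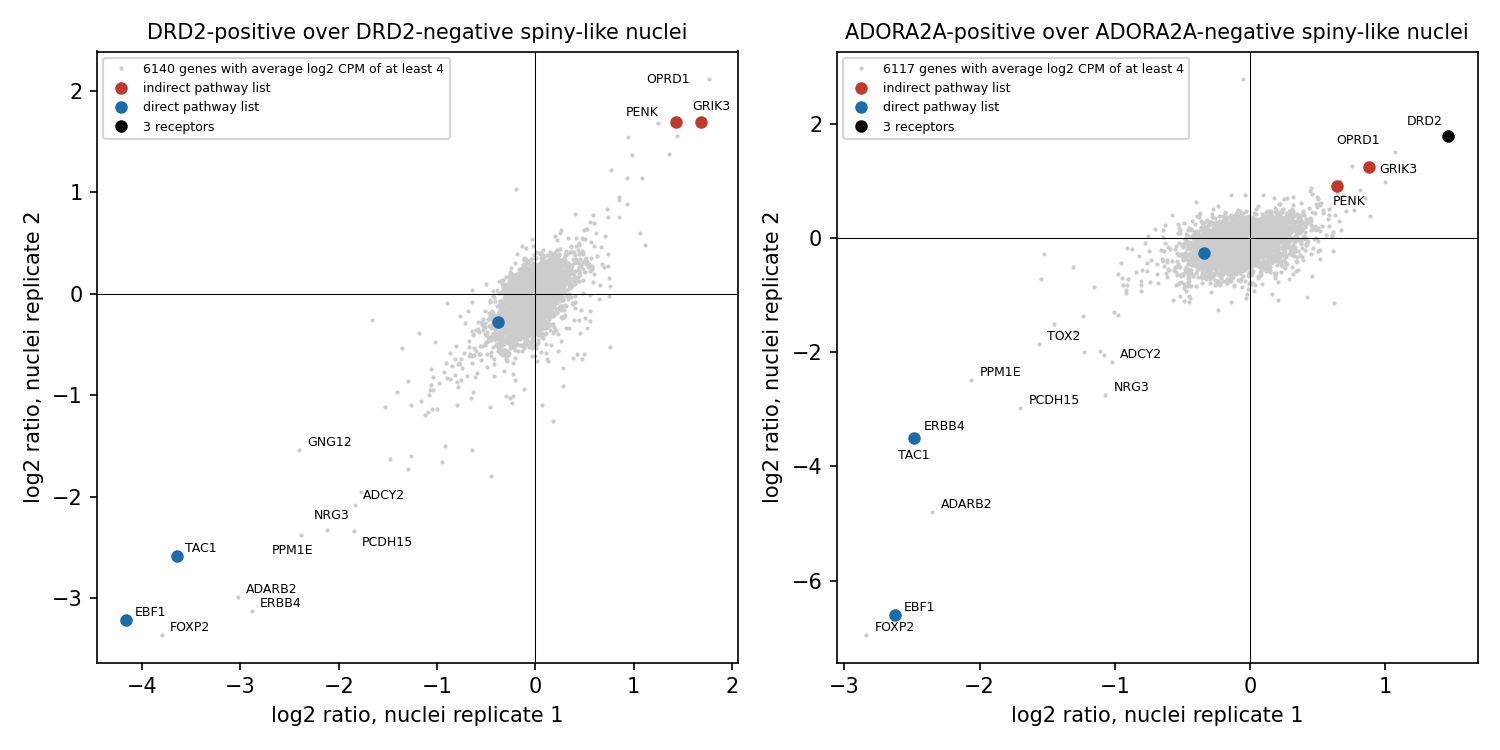
Log2 ratio of CPM in nuclei with over nuclei without a UMI of DRD2 (left) or ADORA2A (right) among spiny-like nuclei, replicate 1 on the x axis and replicate 2 on the y axis; grey points are genes with an average log2 CPM of at least 4, and red, blue and black points are listed indirect markers, direct markers and receptors. EBF1, FOXP2 and TAC1 lie far below 0 and OPRD1, GRIK3 and PENK above 0 in both libraries.

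GPR6-positive spiny-like nuclei numbered 37 and 12, and their sums were not tested because replicate 2 fell short of the minimum of 20 positive nuclei. DRD2 had 24.1 against 16.8 and 65.96 against 23.1 CPM in nuclei with and without GPR6. ADORA2A had 6.19 against 2.97 and 13.7 against 5.09. PENK had 46.8 against 24.1 and 35.7 against 20.4, GRIK3 180 against 104 and 311 against 158, TAC1 24.8 against 152 and 55.0 against 104, and EBF1 11.004 against 79.7 and 33.0 against 103. The direction was the same in both libraries for each of the 6 genes, and that of the 5 other than DRD2 was the one seen beside DRD2. Markers of other cell types also differed, with astrocyte markers at 41.3 against 14.4 and 54.96 against 46.8 CPM and oligodendrocyte markers at 80.5 against 75.2 and 200.6 against 111.4. Median doublet scores were 0.107 against 0.104 and 0.0967 against 0.0893. Their part in the values beside GPR6 was not tested.

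Markers of cell types were summed on both sides of the DRD2 split. The summed level of the 14 spiny markers was 8681 against 7928 CPM in DRD2-positive and DRD2-negative nuclei of replicate 1 and 8344 against 7740 in replicate 2. The summed oligodendrocyte markers had 89.0 against 68.4 and 92.1 against 122.5, with none of 8 at 0. Astrocyte markers had 17.5 against 14.1 and 32.5 against 53.9, and microglia markers 6.26 against 8.01 and 18.5 against 19.7. Interneuron markers had 16.8 against 23.4 and 21.7 against 33.99, with 4 and 5 of 13 at 0 in DRD2-positive nuclei and 2 of 13 in DRD2-negative nuclei of each library. Endothelial markers had 37.2 against 40.7 and 63.8 against 77.04, and oligodendrocyte precursor markers 1587 against 1678 and 1675 against 1778. Of 13 marker classes, 6 were lower in DRD2-positive nuclei of both libraries, 4 were higher in both and 3, oligodendrocyte and astrocyte markers among them, went opposite ways. Median doublet scores were 0.0976 against 0.104 and 0.0866 against 0.0893. In the ADORA2A split, interneuron markers had 19.7 against 21.4 and 22.04 against 31.1 CPM, microglia markers 4.49 against 7.77 and 12.1 against 20.4, and astrocyte markers 8.77 against 16.05 and 65.8 against 44.1. The part of these differences in the receptor results was not tested.

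Levels of the receptors were then set side by side over all classes of nuclei. DRD2 stood at 27.2 ± 3.43 CPM (SD, n = 2) in an unnamed cluster led by SCGN, LHX8 and SLC5A7, at 20.3 ± 4.69 in spiny-like and at 8.61 ± 0.936 in interneuron-like nuclei. Neuron-like nuclei followed at 4.29 ± 1.57, and each of the other classes had a mean under 3 CPM. The libraries of the first 3 classes did not overlap with those of the next, but the unnamed cluster held only 18 and 23 DRD2 UMIs and its counting intervals (14.7 to 39.2 and 18.8 to 44.5) covered the spiny-like levels.

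ADORA2A was highest in spiny-like nuclei, at 4.14 ± 1.497 CPM, followed by the unnamed cluster at 1.98 ± 0.849 and interneuron-like nuclei at 1.06 ± 0.424. The unnamed cluster held 1 and 2 ADORA2A UMIs, so its place in that order was within counting error. GPR6 stood at 0.679 ± 0.331 in spiny-like nuclei, and the unnamed cluster held 1 and 0 GPR6 UMIs. The ADORA2A UMIs per 100 DRD2 UMIs were 18.1 and 22.0 in spiny-like nuclei, 9.52 and 14.6 in interneuron-like nuclei and 5.56 and 8.70 in the unnamed cluster, and the intervals of the last 2 classes held both spiny-like values.

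The unnamed cluster held 177 and 183 shallow nuclei, in which 7 spiny markers stood above other clusters. SLC5A7 is the choline transporter of cholinergic neurons. DRD2 was found in 11 nuclei of each library, 6.21% and 6.01%. These 11 were deeper than the rest, with medians of 4246 against 1697 and 16756 against 1420 UMIs. Among them CHAT, the acetylcholine-making enzyme, was found in 4 and 6 nuclei, against 8 of 166 and 6 of 172 nuclei without DRD2. PENK was found in 0 and 1 of them and EBF1 and ADORA2A in none. The direct pathway gene TAC1 was found in 4 and 1 of them, against 56 of 166 and 36 of 172 nuclei without DRD2.

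Over all usable nuclei, 14 and 16 had UMIs of both CHAT and SLC5A7, a group chosen after values were seen. DRD2 was found in 4 of 14 (28.6%, 8.39 to 58.1) and 6 of 16 (37.5%, 15.2 to 64.6). Neither ADORA2A nor GPR6 was found in any, but at the shares seen in spiny-like nuclei so few nuclei would hold few or none, so nothing is read from it. Their median depths were 5507 and 22635 UMIs.

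The interneuron-like cluster 16, with KIT, LHX6 and PTHLH among its markers, held 102 and 156 nuclei. DRD2 was found in 13 (12.7%, 6.96 to 20.8) and 28 (17.9%, 12.3 to 24.9), at a median depth of 17800 and 18256.5 UMIs. ADORA2A was found in 2 and 3 nuclei and GPR6 in 1 and none. KIT was found in 13 of 13 and 24 of 28 DRD2-positive nuclei, against 70 of 89 and 61 of 128 without DRD2, and PENK in 0 and 1 of the DRD2-positive nuclei. DRD2 in this cluster was thus above the oligodendrocyte-like background in both libraries.

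Genes whose levels followed the receptors over clusters were ranked by the lower of 2 Pearson correlations of log2(CPM + 1), 1 for each nuclei library, over 15 clusters and among 11281 genes. The clusters share library, depth and free RNA, and no test was made. For DRD2 the first was ADRA1A (0.825), followed by ITGA3 (0.757), ITGA11 (0.751), GOLT1A (0.751) and CACNA2D3 (0.741). For ADORA2A they were VGLL3 (0.720), UPK1B (0.676), UPB1 (0.671), DRD2 (0.668) and OPRD1 (0.661). For GPR6 they were UPB1 (0.709), FAM166A (0.662), DRD2 (0.657), KCNA4 (0.653) and RGS14 (0.649). DRD2 was thus among the 5 closest genes of both other receptors.

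Neighbouring genes were examined because reads of overlapping or adjacent genes cannot be told apart where the counting of strand is not stated. In the RefSeq assembly ARS-UI_Ramb_v3.0, UPB1 and SPECC1L stand within 3 genes of ADORA2A, and TTC12 and ZW10 within 3 genes of DRD2. Among spiny-like nuclei UPB1 was found with ADORA2A at odds ratios of 2.26 and 4.82, in 11.4% and 15.9% of ADORA2A-positive nuclei, and SPECC1L at 1.96 and 2.54. TTC12 was found with DRD2 at odds ratios of 4.09 and 3.13, on 11 and 10 nuclei, and ZW10 at 1.72 and 1.63. Of 4 named neighbours of GPR6, WASF1, CDC40, FIG4 and AK9, none had an odds ratio above 1.5 in both libraries. What part of these counts came from reads across gene borders was not tested.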

How the data were processed

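The authors deposited 1 matrix of raw UMI counts per library, made with Cell Ranger 6.0.1 (whole cells) or 7.0.0 (nuclei) per the file headers. Genome build, annotation, strand and counting of introns were not given in the sources used here. The receptors and gene lists were chosen with earlier results of these data known. Libraries were paired by animal through the titles, though the protocol text names the animals of the second pool differently. Same-pool libraries had a correlation of deviations of -0.0168 over 15781 genes. Blocked by pool, the edgeR test called 3225 genes higher and 2246 lower in nuclei, against 4695 and 3536.

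Counts were summed over all barcodes of a library and tested with edgeR 4.0.16 in R 4.3.3 (TMM, filterByExpr, quasi-likelihood test, Benjamini-Hochberg adjustment, calls at 0.05). An exact permutation of 2 against 2 libraries cannot go below p = 0.333. On simulated counts for 15562 genes this test recovered 58% of the 4-fold and 96.5% of the 16-fold changes, and called 9 of 15376 unchanged genes. For the DRD2 split (13825 genes) it recovered 86.9% of 2-fold and 98.9% of 4-fold changes and called 6 of 13636 unchanged genes. The simulated libraries shared the same gene proportions and a common dispersion, with only 200 genes changed. The real libraries differed in far more genes, so these rates need not hold for them.

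Nuclei were used where 200 or more genes were detected and no more than 5% of UMIs were mitochondrial. Scrublet called 390 doublets in nuclei replicate 1 and 0 in replicate 2, where it did not work and doublets remained. Nuclei were clustered with scanpy 1.11.5 (2000 variable genes, 30 components, 15 neighbours, Leiden resolution 0.5) without the receptors and without integration. Clusters were named from at least 3 markers. Odds ratios had 0.5 added to each count. Genes named in each split were the 10 per direction with the largest change among called genes with a symbol, an average log2 CPM of at least 4 and 1 direction in both libraries. Genes on the lists could be named freely, and the 5 genes most like each receptor were ranked over clusters of at least 50 nuclei. Alternatives included DESeq2 1.42.0, other scalings, filters, thinning, doublet removal and cluster settings. Some listed genes are not reported here.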

Additional observations from a re-analysis of the deposited data

How the results depend on the processing

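Against whole cells, the ADORA2A log2 fold change of -2.60 reversed to 0.57 with library size as the only scaling and to 9.75 without whole cells replicate 2, where the remaining whole cells library held no count and the value depends on the prior count. It was -2.17 with DESeq2 and -1.26 among barcodes with at least 200 genes (neither passed the test), and -2.20 with the replicate block (adjusted p = 0.0482). Leaving out 1 library gave ADORA2A values from -2.88 to 9.75, and DRD2 passed the test only with library size alone (3.40). Listed genes higher in nuclei numbered 36, 68 with library size alone and 25 to 42 with 1 library left out. Those lower numbered 21, against 0 with library size alone, 11 with DESeq2, 9 among barcodes with at least 200 genes, 12 with the replicate block and 6 to 23 with 1 library left out. The cause of these changes was not tested.

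Mean shares of spiny-like nuclei fell by construction with a higher UMI minimum and with thinning. With the limits on genes and mitochondrial UMIs the spiny-like class itself changed, from 2592 nuclei to 3366 and 3390. For DRD2 (28.5%) they were 14.3% for at least 2 UMIs, 1.54%, 3.82% and 16.1% after thinning to 1000, 2000 and 10000 UMIs, 22.1% with at least 500 genes per nucleus and 21.6% with at most 20% mitochondrial UMIs. For ADORA2A (9.25%) the same settings gave 1.46%, 0.225%, 0.729%, 3.98%, 7.20% and 7.02%. For GPR6 (1.92%), at least 2 UMIs gave 0.117% and thinning to 1000 and 2000 UMIs 0.0398% and 0.157%. The mean log2 odds ratio was 2.89 for DRD2 with ADORA2A and 1.23 when thinned to 10000 UMIs. For DRD2 with GPR6 it was 1.47, and 1.19 thinned, 1.43 without the highest doublet scores, 1.93 with at least 500 genes and 2.05 with at most 20% mitochondrial UMIs. For ADORA2A with GPR6 it was 1.73, and 2.65 thinned.

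Genes higher and lower beside DRD2 numbered 491 and 600. They were 0 and 2 with no replicate block, 179 and 144 with DESeq2, 189 and 242 in depth-matched nuclei, and 759 were higher with clusters at resolution 1.0. Beside ADORA2A they numbered 248 and 316, and were 0 and 0 with no replicate block, 87 and 60 with DESeq2, 114 and 161 in depth-matched nuclei, 379 and 516 at resolution 1.0, and 73 higher with no filter. Receptor levels in spiny-like nuclei moved by less than the spread between libraries in all 27 values recomputed. These came from other cluster and quality settings or from leaving out a nuclei library. With 2 libraries, leaving 1 out always moves the mean by less than that spread, so those values show nothing. Thinning to 10000 UMIs was added after seeing the data. Depth limits what can be read for GPR6 and for both whole cells libraries.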
